A study of Mus musculus with 7 samples.

Results

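The genes described here are 34 genes of neuropeptide signaling and of the dense-core vesicle, the organelle that stores and releases neuropeptides. They were taken by gene symbol from a fixed list, and all 34 were found among the 46333 genes with counts in each library. They comprise 10 peptide precursors of forebrain and interneurons, 13 precursors of hypothalamus, brainstem and other sites, 6 granins and related granule proteins, and 5 genes for the enzymes that process the precursors and for an inhibitor of these enzymes. RNA sequencing compared neurons of il4ra fl/fl.Syn cre mice in 3 cre+ libraries (SynCre + IL-4R fl/fl) with those in 4 cre- libraries (SynCre - IL-4R fl/fl). Both genotypes carried the floxed il4ra alleles, and cre+ mice also carried Cre driven by the neuronal promoter of synapsin 1, which removes exons 7 to 9 of il4ra, the gene for the alpha chain of the interleukin-4 receptor. All were adult littermates with no treatment, given as female mice of 10 to 15 weeks where the isolation of neurons is described and as mice of 12 to 16 weeks where the comparison is shown. Whole brains were dissociated, and microglia, oligodendrocytes and astrocytes were depleted with magnetic beads, so that neurons of all brain regions entered a library together. The comparison asks how these transcripts relate to neuronal loss of the receptor.

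Neuropeptides are made as long precursors that enter the secretory pathway and are packed with granins into dense-core vesicles. Inside the vesicle the prohormone convertases encoded by Pcsk1 and Pcsk2 cut the precursors at basic residues, carboxypeptidase E (Cpe) trims the exposed ends, and Pam amidates many of the products. In the forebrain, precursors such as Sst, Npy, Vip and Cck mark classes of interneurons, whereas in the hypothalamus small groups of neurons make single peptides such as vasopressin, orexin or melanin-concentrating hormone in large amounts.

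Total counts ran from 75707411 to 94376841 in cre+ libraries and from 68213223 to 89951002 in cre- libraries. Il4ra had 29.5, 28.7 and 24.4 CPM (counts per 1000000 counts of the library, scaled with TMM factors) in cre+ libraries, against 20.03, 23.2, 29.6 and 22.4 CPM in cre- libraries, and since the counts are summed over the whole gene they do not test the removal of exons 7 to 9. Neuron markers stood apart in 2 libraries: the summed level of 12 markers was lowest in cre+ replicate 1 at 1211 CPM and highest in cre- replicate 1 at 2918 CPM. Cre- replicate 1 also had the highest share of hemoglobin counts, 5.56%, against 0.629% to 3.28% in the other libraries. Fewer cells of a type and less RNA per cell cannot be told apart in such bulk libraries.

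Most of these genes were lower in cre+ than in cre- libraries, by about the same amount as general neuron markers. In DESeq2, 6 members passed the test, all of them lower in cre+: Cck (the precursor of cholecystokinin), Avp (vasopressin), the granins Chga and Chgb, the granin-related Vgf, and Pcsk1n, which encodes proSAAS, an inhibitor of prohormone convertase 1. Cpe and Pam had no lower level in cre+, and Pomc, Cartpt, Hcrt and Pmch varied so much between libraries of the same genotype that the genotypes could not be separated. Of 33 tested members, 29 had a negative log2 fold change (cre+ over cre-) and 4 a positive value, with a median of -0.67 against -0.04 over all 21542 tested genes.

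In the quasi-likelihood test of edgeR, 0 members passed an adjusted p of 0.05 as lower and 0 as higher, beside 0% of all tested genes in either direction, and limma-voom also called 0 members, with 10 lower and 0 higher at an unadjusted p below 0.05. At an unadjusted p below 0.05, 11 members were lower in cre+ (background 9.75% of tested genes) and 0 were higher (background 10.2%). DESeq2 gave an adjusted p for 28 members and called 6 lower, beside 5.48% of its genes, and 0 higher, beside 6.7%. In 7 members every cre+ library lay below every cre- library (background 9.72%), and in 0 members above it (background 8.94%). Without cre- replicate 1, 6 members were lower at an unadjusted p below 0.05 in edgeR (background 9.05%). Without both cre+ replicate 1 and cre- replicate 1, an alternative chosen after seeing the data, the median of the members was -0.35, DESeq2 called 3 members lower (background 3.41%) and edgeR had 7 lower at an unadjusted p below 0.05 (background 9.11%).

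**Figure D1:**
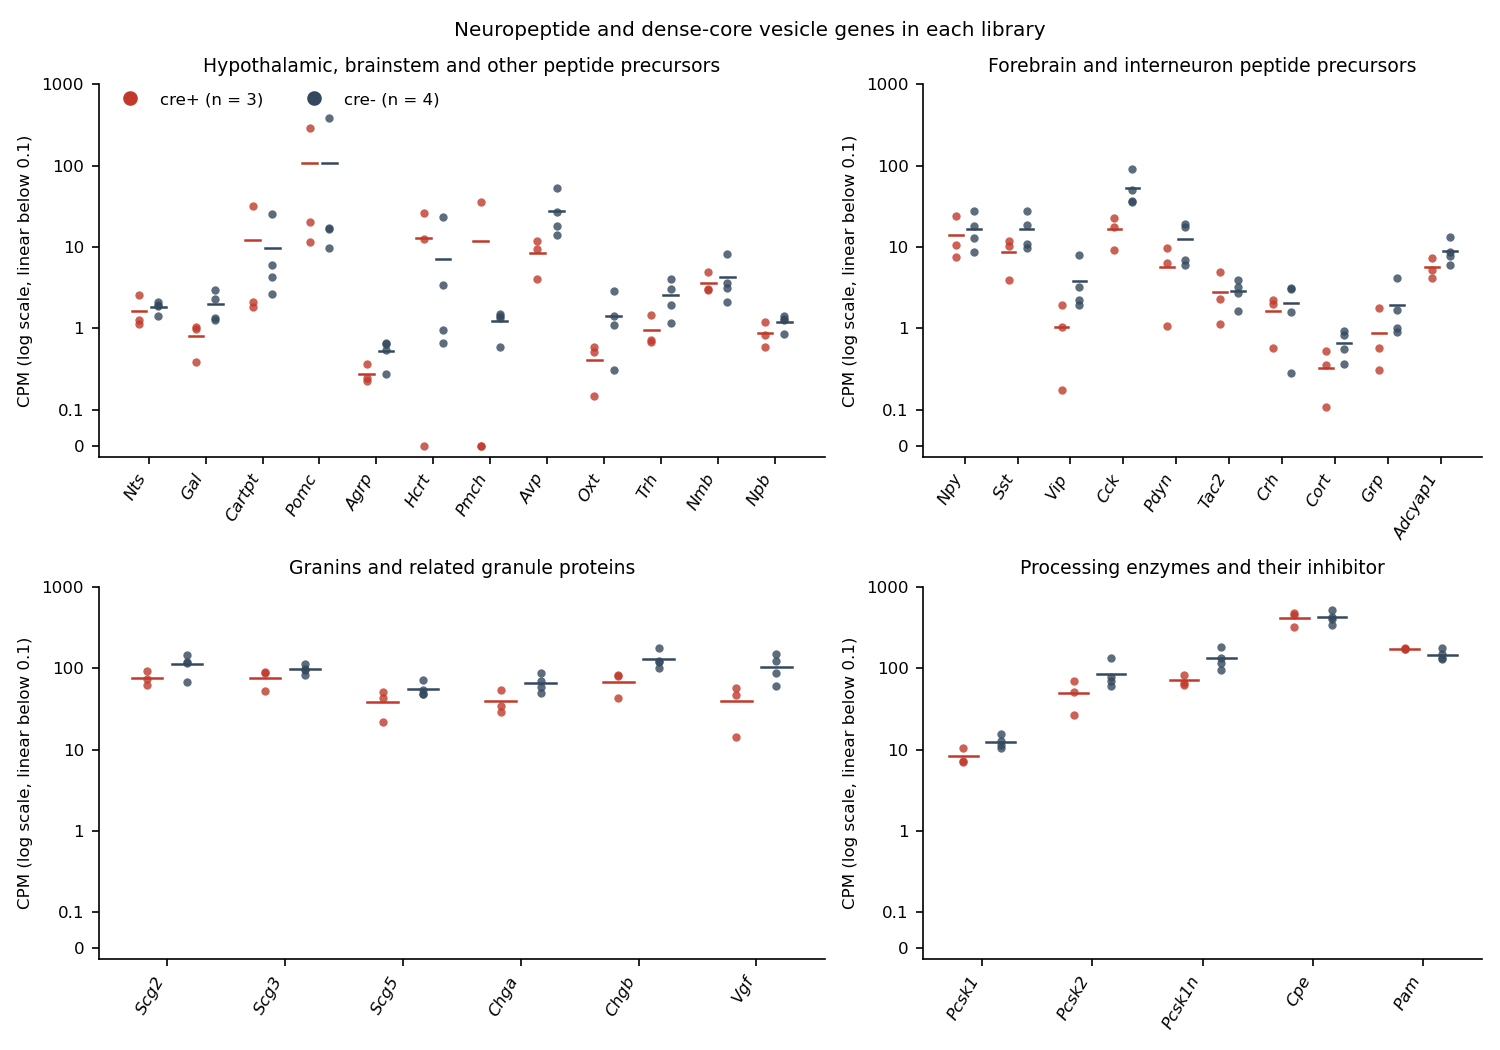
Level of each member in each library (y axis: CPM on a log scale that is linear below 0.1), in 4 panels by the role of the gene. Points are libraries, 3 cre+ in red to the left and 4 cre- in dark blue to the right of each gene, and bars are means. Cck, Chgb, Vgf and Pcsk1n show no overlap between genotypes, whereas Pomc, Hcrt and Pmch spread over more than 10-fold within a genotype.

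The levels of cell type markers moved with this result. All 12 neuron markers had a negative log2 fold change, with a median of -0.67, and DESeq2 called 5 of them lower. Their summed level was 1211 to 2094 CPM in cre+ libraries and 2079 to 2918 CPM in cre- libraries. Markers of glutamatergic forebrain neurons (10 of 10 negative, median -1.14, summed level 131 to 343 CPM in cre+ and 368 to 739.8 CPM in cre- libraries) and of GABAergic neurons (14 of 16 negative, median -0.42, 961 to 1417 CPM in cre+ and 1337 to 1822 CPM in cre-) were lower as well. In the other direction, 15 of 15 endothelial markers had a positive log2 fold change (median 0.64), DESeq2 called 11 of them higher, and their summed level was 16523 to 23847 CPM in cre+ and 11026 to 15341 CPM in cre- libraries. All 10 astrocyte markers were positive too (median 0.85), with 1558 to 1709 CPM in cre+ and 900.5 to 1184 CPM in cre- libraries, and none of the markers in these lists was at 0 in every library. When the neuron marker level of each library was added to the model, the median log2 fold change of the members was -0.01, 2 members were lower (background 5.41%) and 1 was higher (background 6.48%) at an unadjusted p below 0.05 in edgeR. DESeq2 called 0 members lower (background 0.821%) and 1, Cpe, higher (background 1.21%) in that model. With the level of vascular markers in the model instead, the median was -0.94, with 3 lower (background 3.25%) and 1 higher (background 3.08%) in edgeR, and with 0 called lower (background 0.326%) and 0 higher (background 0.161%) in DESeq2. Calls over all genes were thus fewer as well in both models. The mean log2 CPM of neuron markers did not overlap between genotypes (5.92 to 6.80 in cre+ and 6.86 to 7.49 in cre- libraries). Nor did that of endothelial markers (9.70 to 10.3 in cre+ and 9.16 to 9.64 in cre- libraries). With 7 libraries these models therefore cannot separate genotype from marker level.

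**Figure D2:**
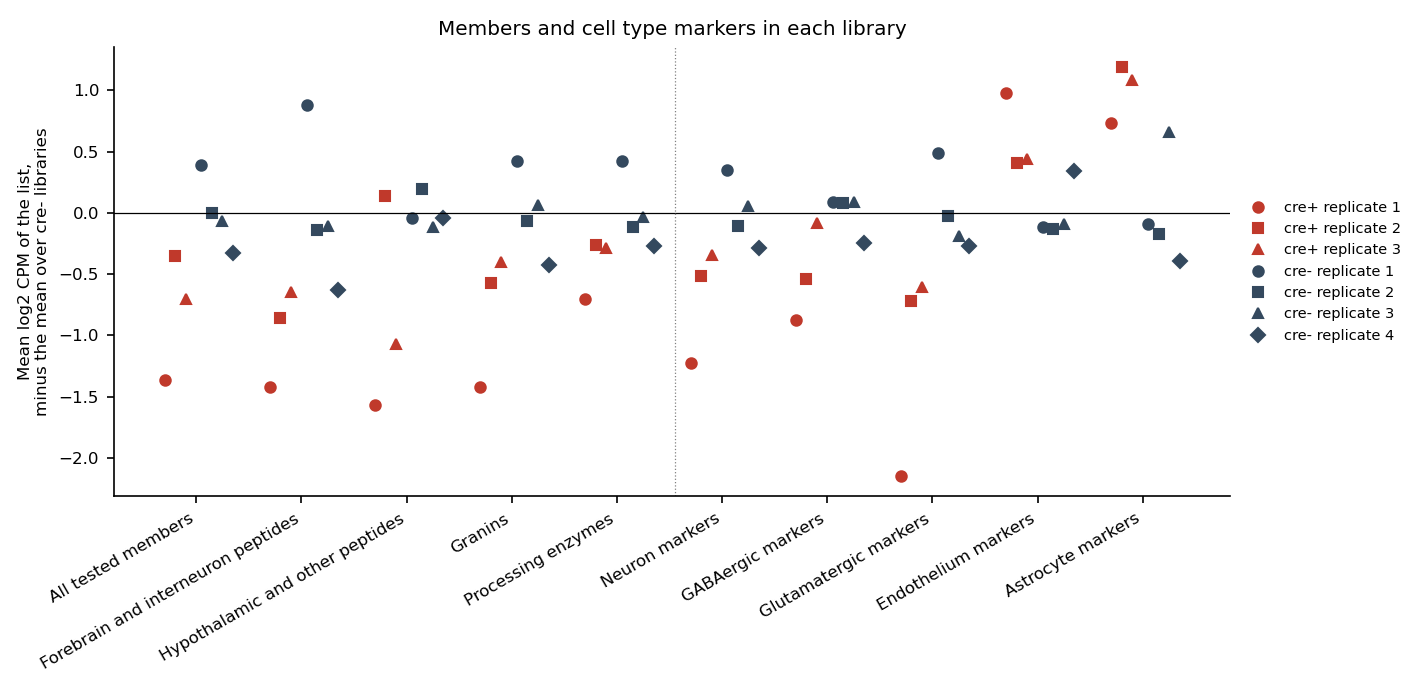
Mean log2 CPM of the members, of their 4 groups and of 5 lists of cell type markers in each library, minus the mean over cre- libraries (y axis, log2 units). Red symbols are cre+ and dark blue symbols cre- libraries, and the shape gives the replicate number. Cre+ replicate 1 is lowest for all members, granins and neuron markers and highest for endothelial markers, and cre- replicate 1 is highest for granins and neuron markers.

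Libraries kept a similar order over many members. Cre+ replicate 1 was the lowest library for 21 of 33 tested members, and cre- replicate 1 was the highest for 23 of 33. The mean log2 CPM of the members was 2.09, 3.10 and 2.75 in cre+ libraries and 3.85, 3.46, 3.39 and 3.13 in cre- libraries. The mean of the neuron markers was 5.92, 6.63 and 6.80 in cre+ and 7.49, 7.04, 7.20 and 6.86 in cre- libraries. Both measures were lowest in cre+ replicate 1 and highest in cre- replicate 1, and in neither did the genotypes overlap.

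Many neuropeptide and granin genes are known targets of the cyclic AMP response element, a DNA sequence bound by the activity-dependent factor CREB. The promoter windows of the members were therefore searched for its 8-base palindrome TGACGTCA and for its 5-base core TGACG on either strand, the palindrome holding the core on both strands. RefSeq promoters (GRCm38.p6, 250 bases before to 50 after the start site) were found for 28 of the 34 members, and Crh, Grp, Agrp, Npb, Vgf and Cpe had no entry. The palindrome was in the promoters of 5 of the 28 members (17.9%), against 2.03% of 27025 genes with a promoter, and the core was in those of 17 members (60.7%), against 23.0% of genes. The 5 elements are shown with their flanks because they fall in members of all 4 groups, which differed in how their genotypes separated. Each line gives 30 bases, 5′ to 3′ on the strand of the gene, with the palindrome in capitals and GRCm39 positions from an exact match of the RefSeq promoter.
Sst, chr16:23709624-23709653, minus strand: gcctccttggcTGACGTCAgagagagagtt
Cartpt, chr13:100037285-100037314, minus strand: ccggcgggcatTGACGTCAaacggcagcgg
Scg2, chr1:79417793-79417822, minus strand: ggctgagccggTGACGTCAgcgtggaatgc
Chgb, chr2:132623479-132623508, plus strand: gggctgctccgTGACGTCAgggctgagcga
Pcsk1, chr13:75237887-75237916, plus strand: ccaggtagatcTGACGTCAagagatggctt
The palindrome began 48 bases before the RefSeq start site in Sst, 112 in Cartpt, 68 in Scg2, 72 in Chgb and 78 in Pcsk1. In the GENCODE M39 annotation, which holds transcripts that begin further upstream, all 5 windows overlap an exon of their gene. Among these 5 genes, Chgb and Pcsk1 had no overlap between genotypes, Sst and Scg2 overlapped, and Cartpt was high in 1 library of each genotype. Of the members called by DESeq2 other than Chgb, Cck and Chga held the core and not the palindrome, and Avp and Pcsk1n held neither in this window, and Vgf had no entry.

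Precursors of forebrain and interneurons had lower means in cre+ libraries throughout. All 10 had a negative log2 fold change, with a median of -0.98. In edgeR 2 of them (Cck and Vip) were lower at an unadjusted p below 0.05 (background 9.75%), and Cck was called by DESeq2 (background 5.48%). Their summed level was 36.8, 60.8 and 74.5 CPM in cre+ libraries, against 199, 99.1, 98.4 and 83.4 CPM in cre- libraries, so that every cre+ library lay below every cre- library. Of these sums Cck alone gave 9.30, 22.7 and 17.7 CPM in cre+ and 91.7, 50.8, 36.6 and 35.9 CPM in cre- libraries. Without Cck the sums overlapped, and of the 10 precursors only Cck had no overlap by itself (background 9.72%).

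Cck (ENSMUSG00000032532, chromosome 9, 121318890 to 121324760, minus strand, GRCm39), the precursor of a peptide made by cortical and hippocampal neurons of both glutamatergic and GABAergic type, had 9.30, 22.7 and 17.7 CPM in cre+ libraries and 91.7, 50.8, 36.6 and 35.9 CPM in cre- libraries. The highest cre+ library lay below the lowest cre- library. Means were 16.6 ± 6.76 CPM in cre+ (SD, n = 3) and 53.7 ± 26.2 CPM in cre- (SD, n = 4), with a log2 fold change of -1.70 ± 0.41 (SE), an edgeR adjusted p of 0.0988 and a DESeq2 adjusted p of 8.9e-04. DESeq2 called Cck without any single library, with adjusted p-values from 1.5e-04 to 0.0072. Relative to the mean of the neuron markers in the same library on the log2 scale, Cck reached -2.70, -2.13 and -2.65 in the cre+ libraries, against -0.97, -1.37, -2.002 and -1.69 in the cre- libraries, again with no overlap. Relative to the GABAergic markers Gad1, Gad2 and Slc32a1, Cck overlapped, with cre+ replicate 2 at -2.19 and cre- replicate 3 at -2.27. With the neuron marker level in the model, its log2 fold change was -0.63 and the DESeq2 adjusted p 0.425.

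Sst and Cort encode the related peptides somatostatin and cortistatin, and Sst marks a major class of interneurons. Sst had 10.2, 3.95 and 11.95 CPM in cre+ libraries and 27.9, 9.71, 19.0 and 10.9 CPM in cre- libraries (log2 fold change -0.95 ± 0.47, edgeR adjusted p = 0.301). The genotypes overlapped, with cre+ replicate 3 above 2 of the cre- libraries. Cort was close to the limit of detection, at 0.531, 0.108 and 0.350 CPM in cre+ and 0.918, 0.559, 0.820 and 0.361 CPM in cre- libraries, the lowest value resting on 8 counts.

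Vip, the precursor of vasoactive intestinal peptide and a marker of disinhibitory interneurons, had 1.96, 1.03 and 0.175 CPM in cre+ libraries and 7.97, 3.22, 2.27 and 1.95 CPM in cre- libraries. Its log2 fold change was -1.87 ± 0.79 (edgeR adjusted p = 0.236, DESeq2 adjusted p = 0.0741), and the genotypes touched only where cre+ replicate 1 exceeded cre- replicate 4. DESeq2 called Vip lower in cre+ when cre+ replicate 1 (adjusted p = 0.0152) or cre- replicate 4 (0.0497) was left out, but not without any other single library. Npy, the precursor of neuropeptide Y, was spread over the same range in both genotypes, with 7.47, 10.6 and 24.2 CPM in cre+ and 27.5, 12.9, 8.76 and 17.9 CPM in cre- libraries (log2 fold change -0.25 ± 0.48).

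Pdyn, the precursor of the opioid dynorphin, had 1.06, 9.66 and 6.39 CPM in cre+ libraries and 19.1, 6.002, 17.9 and 6.85 CPM in cre- libraries, an 18.0-fold range over all libraries. Adcyap1, the precursor of the peptide PACAP, was more even, with 4.20, 5.23 and 7.40 CPM in cre+ and 13.2, 8.70, 7.74 and 6.02 CPM in cre- libraries (log2 fold change -0.67 ± 0.31, edgeR adjusted p = 0.278). Grp, the precursor of gastrin-releasing peptide, was at 0.305 to 1.79 CPM in cre+ and 0.915 to 4.15 CPM in cre- libraries, and DESeq2 called it lower without cre+ replicate 3 (adjusted p = 0.0465). The precursors Crh (corticotropin-releasing hormone, log2 fold change -0.33 ± 0.76) and Tac2 (neurokinin B, -0.04 ± 0.50) had fold changes smaller than their standard errors.

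**Figure D3:**
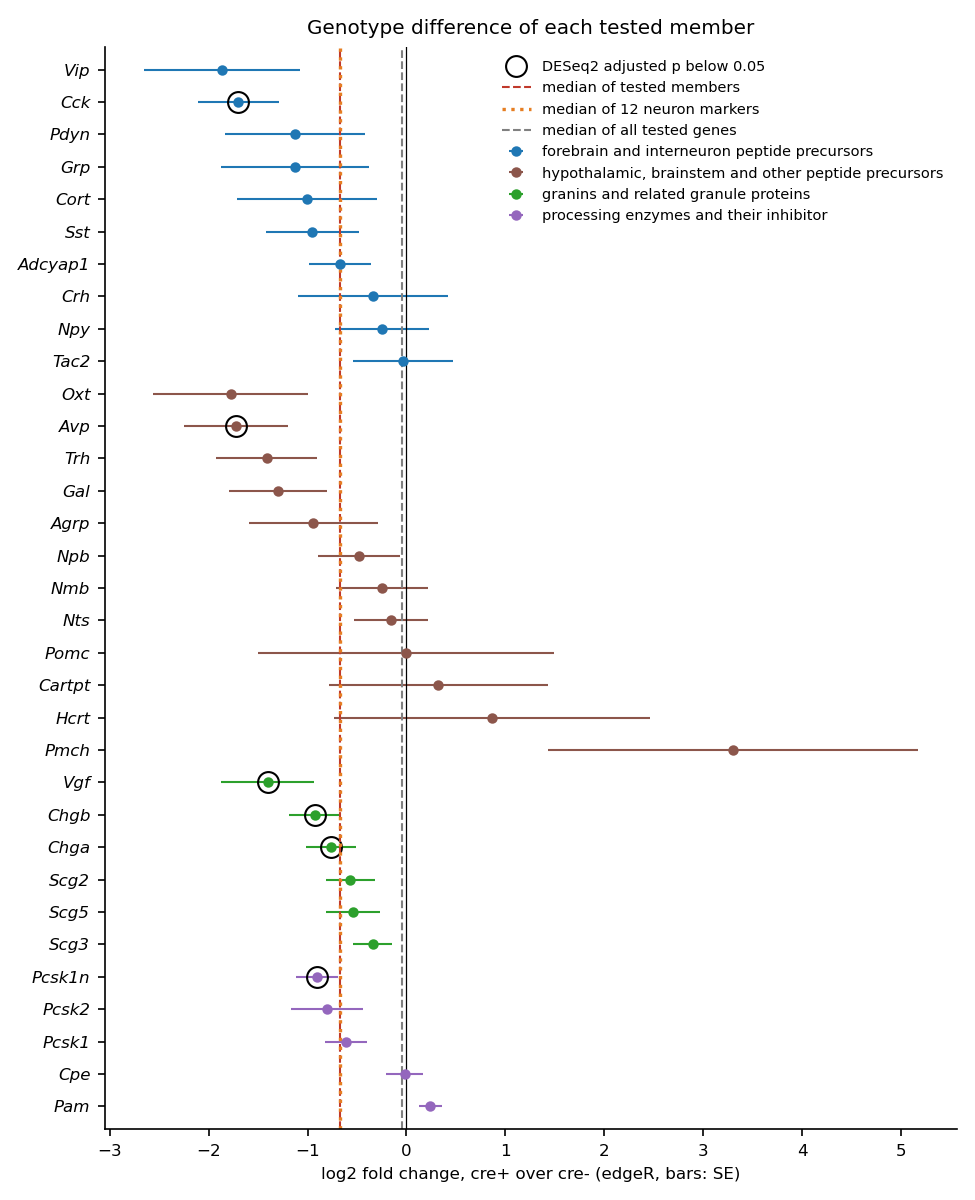
Log2 fold change of each of the 33 tested members, cre+ over cre- (x axis), with its standard error from edgeR, in 4 colors by group. Black rings mark the 6 members called by DESeq2. Vertical lines give the median of the tested members (-0.67), of 12 neuron markers (-0.67) and of all tested genes (-0.04), and 29 of the 33 members lie left of 0.

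Of the 13 precursors of hypothalamus, brainstem and other sites, 12 were tested. Nmu, the precursor of neuromedin U, had 0 counts in every library. Of the 12, 9 had a negative and 3 a positive log2 fold change, with a median of -0.36. In edgeR 3 (Avp, Gal and Trh) had an unadjusted p below 0.05, all lower in cre+ (background 9.75%). The summed level of the 13 precursors overlapped between genotypes, with 310.01, 113 and 62.8 CPM in cre+ and 59.2, 72.4, 83.5 and 456 CPM in cre- libraries, and in the highest library of each genotype Pomc alone gave 291 and 389 CPM.

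Avp (ENSMUSG00000037727, chromosome 2, 130422540 to 130424474, minus strand), the vasopressin precursor of magnocellular and suprachiasmatic neurons, had 9.46, 11.9 and 4.01 CPM in cre+ libraries and 18.0, 14.0, 26.9 and 53.0 CPM in cre- libraries, with no overlap. Means were 8.44 ± 4.02 CPM in cre+ (SD, n = 3) and 28.0 ± 17.5 CPM in cre- (SD, n = 4), with a log2 fold change of -1.73 ± 0.53, an edgeR adjusted p of 0.139 and a DESeq2 adjusted p of 0.0076. Without cre+ replicate 1 the DESeq2 adjusted p was 0.162, and without any other single library it was 0.0047 to 0.039. Relative to neuron markers the genotypes overlapped. Oxt, the oxytocin precursor and the neighbor of Avp on chromosome 2, was much lower in level, at 0.509, 0.583 and 0.148 CPM in cre+ and 2.86, 1.43, 0.306 and 1.09 CPM in cre- libraries (log2 fold change -1.78 ± 0.78, edgeR adjusted p = 0.250). Cre- replicate 3 overlapped with the cre+ libraries for Oxt but not for Avp. Without it DESeq2 called Oxt lower (adjusted p = 0.0426), but not without any other single library.

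Gal, the galanin precursor, had 0.384, 0.976 and 1.04 CPM in cre+ libraries and 2.95, 1.35, 2.31 and 1.27 CPM in cre- libraries, with no overlap (log2 fold change -1.30 ± 0.50, edgeR adjusted p = 0.200, DESeq2 adjusted p = 0.073). Trh, the precursor of thyrotropin-releasing hormone, had 1.47, 0.678 and 0.713 CPM in cre+ and 4.04, 3.07, 1.92 and 1.17 CPM in cre- libraries, and only cre- replicate 4 fell into the range of the cre+ libraries (log2 fold change -1.41 ± 0.51, edgeR adjusted p = 0.186). DESeq2 called Trh lower without that library (adjusted p = 0.0139) or without cre+ replicate 1 (0.0303), but not without any other single library. Agrp, the agouti-related peptide of hunger-promoting neurons, reached 0.363 CPM in cre+ and 0.669 CPM in cre- libraries, with 18 to 59 counts per library. The neurotensin precursor Nts, the neuromedin B precursor Nmb and the neuropeptide B precursor Npb had log2 fold changes of -0.16 ± 0.38, -0.24 ± 0.47 and -0.48 ± 0.41, and their genotypes overlapped.

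Pomc, the precursor of melanocortins and beta-endorphin, was the second most abundant member per kilobase of GENCODE M39 exon and was carried by 1 library of each genotype. It had 291, 11.6 and 20.5 CPM in cre+ libraries and 17.1, 9.64, 16.5 and 389 CPM in cre- libraries, so that cre+ replicate 1 and cre- replicate 4 stood at least 10 times above the others. These libraries also had the highest Oacyl level, 7.81 CPM in cre+ replicate 1 and 9.46 CPM in cre- replicate 4 against 0.190 to 1.94 CPM elsewhere, and the highest level of Tbx19, a transcription factor of pituitary cells that make Pomc, with 45 and 64 counts against 0 to 13 counts elsewhere. Oacyl and Tbx19 were chosen after their values were seen. Of 10 anterior pituitary markers, 4 were at 0 in every library, among them the growth hormone gene Gh. The summed level of the list was 12.3, 10.5 and 6.39 CPM in cre+ and 7.85, 7.13, 4.96 and 6.14 CPM in cre- libraries. Tbx19 is on this list, and Lhb and Pou1f1 on it had another order. Lhb was at 11.4 CPM in cre+ replicate 1 but at 4.68 CPM in cre- replicate 4, below 10.5 CPM in cre+ replicate 2. Pou1f1 was highest in cre- replicate 2, at 0.868 CPM. The part of these markers in the level of Pomc was not tested. The log2 fold change of Pomc was -0.0025 ± 1.49.

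Cartpt, the precursor of the CART peptides, was high in cre+ replicate 2 and cre- replicate 2, with 1.84, 32.3 and 2.11 CPM in cre+ and 6.05, 25.6, 4.27 and 2.66 CPM in cre- libraries (log2 fold change 0.32 ± 1.11), and without cre+ replicate 2 DESeq2 called it lower (log2 fold change -2.27, adjusted p = 0.0468). In the same libraries Ucn, the urocortin precursor, which is made with CART in neurons of the Edinger-Westphal nucleus, had 136 and 268 counts, against 0 to 8 counts in the others. Ucn was named after its values were seen.

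Pmch and Hcrt, the precursors of melanin-concentrating hormone and of the orexins, both mark neurons of the lateral hypothalamus. Pmch had 0 counts in cre+ replicates 1 and 3, 36.1 CPM in cre+ replicate 2, and 1.36, 1.51, 1.42 and 0.585 CPM in cre- libraries. Hcrt had 0, 12.7 and 26.5 CPM in cre+ libraries and 0.658, 3.42, 23.6 and 0.958 CPM in cre- libraries. The library with the highest Pmch held less Hcrt than cre+ replicate 3, in which Pmch was at 0. Fitted log2 fold changes were 3.30 ± 1.87 for Pmch (edgeR adjusted p = 0.366) and 0.87 ± 1.596 for Hcrt (0.814), and without cre+ replicate 2 that of Pmch turned negative, with DESeq2 calling it lower in cre+ (log2 fold change -9.05, adjusted p = 1.1e-05). These fitted values rest on libraries with 0 counts and are not a measure of size.

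**Figure D4:**
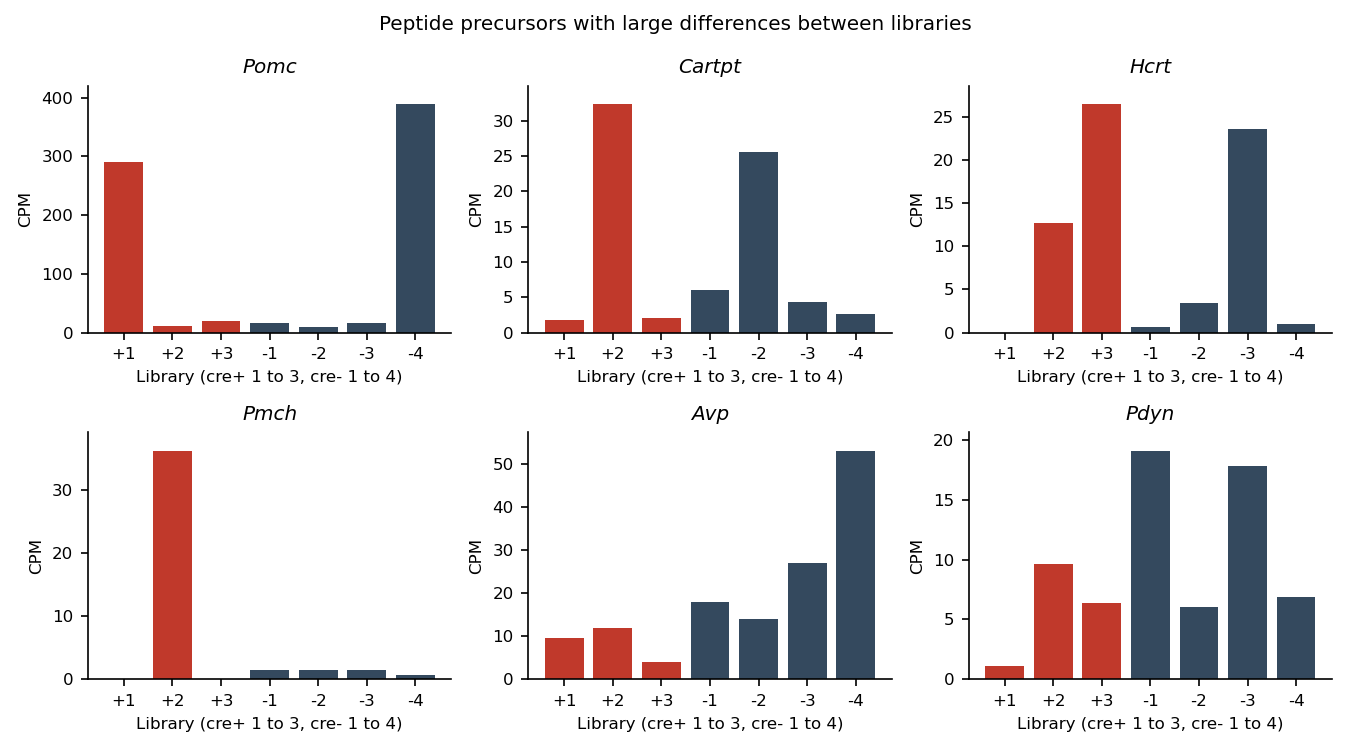
Level (y axis, CPM, linear) of 6 peptide precursors in each of the 7 libraries, cre+ replicates 1 to 3 in red and cre- replicates 1 to 4 in dark blue. Pomc is high in cre+ replicate 1 and cre- replicate 4, Cartpt in replicate 2 of both genotypes, Hcrt in cre+ replicates 2 and 3 and cre- replicate 3, and Pmch in cre+ replicate 2, whereas all cre+ bars of Avp lie below its cre- bars.

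The spread between libraries was larger in the members than in genes at large. The highest library exceeded the lowest more than 10-fold in 11 of 33 tested members (33.3%), against 17.3% of all tested genes, and the median ratio of highest to lowest library was 5.003 in members and 2.20 in all tested genes. Among cre- libraries alone the median coefficient of variation was 38.1% in members and 20.1% in all tested genes. Of these 11 members, 10 were peptide precursors and the remaining one was Vgf.

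All 6 granins and related granule proteins were lower in mean in cre+ libraries, with a median log2 fold change of -0.67. These acidic proteins help to form the core of the vesicle and are themselves cut into peptides. In edgeR 4 of 6 (Chga, Chgb, Vgf and Scg2) were lower at an unadjusted p below 0.05 (background 9.75%). DESeq2 called 3 of 6 lower (background 5.48%), and Chgb and Vgf had no overlap between genotypes (background 9.72%). Of the 12 general neuron markers, 9 were lower at an unadjusted p below 0.05 in edgeR, DESeq2 called 5 lower, and 5 had no overlap. The summed level of the 6 granins and related proteins was 223, 375 and 416 CPM in cre+ libraries. In cre- libraries it was 745, 534, 578 and 408 CPM, where cre- replicate 4 fell below cre+ replicate 3.

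Vgf (ENSMUSG00000037428, chromosome 5, 137055246 to 137062205, plus strand), a gene induced by neurotrophins and neuronal activity, had 14.3, 47.4 and 57.0 CPM in cre+ libraries and 149, 88.4, 121 and 60.2 CPM in cre- libraries. Means were 39.5 ± 22.4 CPM in cre+ (SD, n = 3) and 105 ± 38.5 CPM in cre- (SD, n = 4), with a log2 fold change of -1.40 ± 0.47, an edgeR adjusted p of 0.167 and a DESeq2 adjusted p of 0.0165. Leaving out cre- replicate 1 or cre- replicate 3 gave a DESeq2 adjusted p of 0.0562 or 0.0628, and leaving out any other library gave 0.0031 to 0.043. Relative to neuron markers on the log2 scale, Vgf reached -2.08, -1.07 and -0.97 in the cre+ libraries, against -0.27, -0.57, -0.28 and -0.95 in the cre- libraries, with no overlap but with cre+ replicate 3 and cre- replicate 4 nearly level. With the neuron marker level in the model, the log2 fold change of Vgf was -0.010 and the DESeq2 adjusted p 0.99.

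Chgb (ENSMUSG00000027350, chromosome 2, 132623198 to 132636999, plus strand) had 43.4, 79.5 and 82.9 CPM in cre+ libraries and 179, 123, 118 and 100.3 CPM in cre- libraries (log2 fold change -0.93 ± 0.27, edgeR adjusted p = 0.124, DESeq2 adjusted p = 0.0136). Every cre- library lay above every cre+ library, and without cre+ replicate 1 the DESeq2 adjusted p was 0.0618. Chga (ENSMUSG00000021194, chromosome 12, 102521228 to 102531287, plus strand) had 29.3, 33.9 and 54.1 CPM in cre+ libraries and 87.8, 58.2, 69.7 and 50.1 CPM in cre- libraries (log2 fold change -0.77 ± 0.25, edgeR adjusted p = 0.161, DESeq2 adjusted p = 0.040). Cre- replicate 4 lay below cre+ replicate 3. The call of Chga in DESeq2 was lost without cre+ replicate 1 (adjusted p = 0.201), cre+ replicate 2 (0.204), cre- replicate 1 (0.107), cre- replicate 2 (0.0755) or cre- replicate 3 (0.116).

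Scg2, which encodes secretogranin II, had 62.2, 73.6 and 91.6 CPM in cre+ libraries and 145, 121, 115 and 67.5 CPM in cre- libraries (log2 fold change -0.57 ± 0.24, edgeR adjusted p = 0.245). Cre- replicate 4 lay among the cre+ libraries. Without it DESeq2 called Scg2 lower (adjusted p = 0.0030), but without any other single library the adjusted p was 0.0967 to 0.415. Scg3, which ties granins to the vesicle membrane, had 52.2, 89.7 and 87.9 CPM in cre+ and 113, 94.7, 98.6 and 81.7 CPM in cre- libraries. Scg5, the chaperone of prohormone convertase 2, had 21.8, 51.0 and 42.7 CPM in cre+ and 71.3, 48.8, 54.7 and 48.6 CPM in cre- libraries. For both, cre+ replicate 1 was far below the other libraries, and their log2 fold changes were -0.34 ± 0.20 for Scg3 and -0.54 ± 0.27 for Scg5.

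Of the 5 genes of precursor processing, Pcsk1n was called lower in cre+ libraries by DESeq2, and neither tool called the convertase genes Pcsk1 and Pcsk2 or the later-acting Cpe and Pam. Pcsk1n (ENSMUSG00000039278, chromosome X, 7786061 to 7790649, plus strand) had 62.5, 83.2 and 66.4 CPM in cre+ libraries and 181, 117, 135 and 96.0 CPM in cre- libraries, with no overlap. Means were 70.7 ± 10.96 CPM in cre+ (SD, n = 3) and 132 ± 36.2 CPM in cre- (SD, n = 4), with a log2 fold change of -0.90 ± 0.21, the lowest edgeR adjusted p of all members (0.0978) and a DESeq2 adjusted p of 0.0035. DESeq2 called Pcsk1n without any single library, with adjusted p-values from 1.4e-04 to 0.030. Relative to neuron markers on the log2 scale the genotypes overlapped. Values were 0.05, -0.26 and -0.75 in the cre+ libraries, against 0.008, -0.17, -0.12 and -0.27 in the cre- libraries. With the neuron marker level in the model, its log2 fold change was -0.42 and the DESeq2 adjusted p 0.492.

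Pcsk1, the convertase that proSAAS inhibits, had 7.17, 7.09 and 10.4 CPM in cre+ libraries and 15.5, 12.6, 11.4 and 10.6 CPM in cre- libraries, again with no overlap (log2 fold change -0.61 ± 0.21, edgeR adjusted p = 0.176, DESeq2 adjusted p = 0.058). The gap between cre+ replicate 3 and cre- replicate 4 was small. DESeq2 called the gene without cre+ replicate 3 (adjusted p = 0.0143), but not without any other single library. Pcsk2, the second convertase, had 26.9, 69.4 and 51.5 CPM in cre+ and 135, 70.0, 78.1 and 60.8 CPM in cre- libraries (log2 fold change -0.80 ± 0.36, edgeR adjusted p = 0.260). Cre+ replicate 2 lay above cre- replicate 4. Without that cre+ library DESeq2 called Pcsk2 lower (adjusted p = 0.0436), but not without any other single library.

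Cpe was the most abundant member by its mean level, with 324, 455 and 477 CPM in cre+ libraries and 527, 399, 431 and 336 CPM in cre- libraries. Means were 419 ± 82.7 CPM in cre+ (SD, n = 3) and 423 ± 79.9 CPM in cre- (SD, n = 4), with a log2 fold change of -0.02 ± 0.19. Pam had 176, 171 and 175 CPM in cre+ libraries and 175, 129.7, 135 and 149 CPM in cre- libraries (log2 fold change 0.24 ± 0.12, edgeR adjusted p = 0.297), and without cre- replicate 1 DESeq2 called it higher in cre+ (log2 fold change 0.35, adjusted p = 0.032). Both genes are also transcribed in cells other than neurons. Relative to neuron markers on the log2 scale, Cpe reached 2.42, 2.20 and 2.10 in the cre+ libraries, against 1.55, 1.61, 1.55 and 1.53 in the cre- libraries. Pam reached 1.54, 0.79 and 0.65 in the cre+ libraries, against -0.04, -0.02, -0.12 and 0.36 in the cre- libraries. Both were thus above the cre- range in every cre+ library, as were 33% of all tested genes by this ratio, whose neuron markers were themselves lower in cre+.

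**Figure D5:**
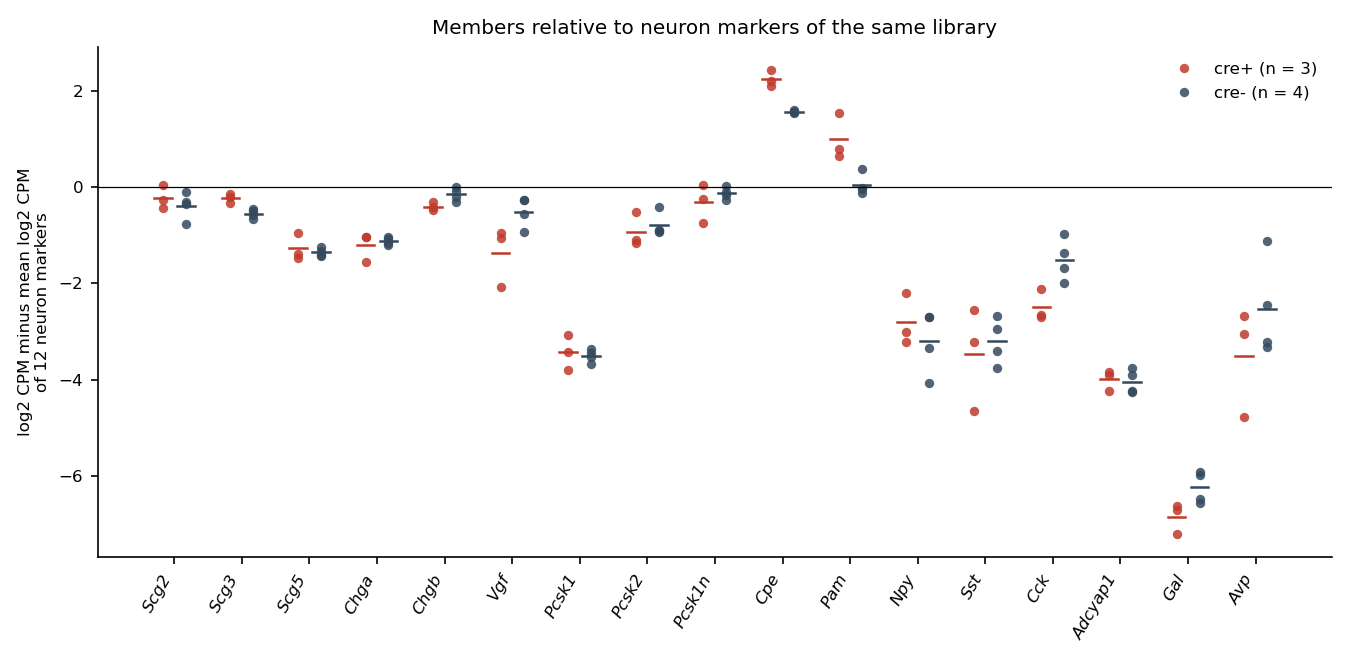
Log2 CPM of granins, processing genes and 6 peptide precursors minus the mean log2 CPM of 12 neuron markers in the same library (y axis, log2 units). Red points are the 3 cre+ and dark blue points the 4 cre- libraries, and bars are means. Cck, Gal, Chgb and Vgf lie lower (background 1.04% of tested genes) and Scg3, Cpe and Pam higher (background 33%) in all cre+ libraries, and the other genes overlap.

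Set against neuron markers of the same library, the members were split about evenly between both directions. The median difference in this ratio between genotypes was -0.09 on the log2 scale, with 17 of 33 members negative and 16 positive. In 4 members (Cck, Gal, Chgb and Vgf) all cre+ libraries were below all cre- libraries (background 1.04% of tested genes), and in 3 (Scg3, Cpe and Pam) above them (background 33%). With the neuron marker level as a term in edgeR instead of a ratio, the log2 fold changes were -0.63 for Cck, -0.07 for Gal, -0.15 for Chgb, -0.010 for Vgf, 0.22 for Scg3, 0.51 for Cpe and 0.34 for Pam. Set against the GABAergic markers Gad1, Gad2 and Slc32a1, the median difference was -0.23, with 20 members negative and 13 positive. Here 1 member (Vgf) was separated as lower (background 1.58%) and 2 (Cpe and Pam) as higher (background 12.1%), while Cck, Gal, Chgb and Scg3 overlapped. These ratios were not tested.

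Levels between genes were compared per kilobase of exon in GENCODE M39. These lengths join the exons of all transcripts and can exceed the gene as the deposited files give it. Sst had 3628 bases of exon, against deposited positions 23708323 to 23709708, and Vip 8693 bases, against 5589218 to 5597617. The order of the genes therefore depends on the annotation, and values of such genes may be too low. Cpe had 117 ± 23.1 CPM per kilobase in cre+ libraries (SD, n = 3) and 118 ± 22.3 in cre- libraries (SD, n = 4), ahead of Pcsk1n with 26.4 ± 4.09 in cre+ and 49.4 ± 13.5 in cre-, and Scg2 with 30.1 ± 5.88 in cre+ and 44.6 ± 12.9 in cre-. Vgf, Chgb and Avp followed, and their levels in cre- libraries overlapped with each other. With these lengths the highest forebrain precursors were Npy, with 7.79 ± 4.93 in cre+ and 9.26 ± 4.46 in cre-, and Cck, with 3.03 ± 1.24 in cre+ and 9.84 ± 4.80 in cre-. The place of Sst below them rests on its exon length. At the lower end by these lengths were Agrp and Vip, with means of at most 0.468 CPM per kilobase in either genotype.

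Other genes of the pathway were counted from 4 fixed lists, and edgeR called 0 genes of any of them. For all 4 lists the background at an unadjusted p below 0.05 in edgeR was 9.75% lower and 10.2% higher. In DESeq2 it was 5.48% lower and 6.7% higher. Of 35 tested neuropeptide receptors, 27 were negative, 11 were lower and 1 was higher at an unadjusted p below 0.05 in edgeR (background as above), and DESeq2 called 6 of 28 lower. The 5 with the smallest edgeR p were Cckbr, the brain receptor of cholecystokinin, with 2.32, 4.18 and 5.71 CPM in cre+ and 16.8, 11.8, 10.2 and 6.82 CPM in cre- libraries (log2 fold change -1.49 ± 0.39, DESeq2 adjusted p = 0.0036), the opioid receptors Oprd1 (-1.42 ± 0.37) and Oprk1 (-1.40 ± 0.46), the PACAP receptor Adcyap1r1 (-0.52 ± 0.14) and the VIP receptor Vipr1 (-1.32 ± 0.39). DESeq2 called each of these 5, and in each all cre+ libraries were below all cre- libraries.

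Of 20 genes of dense-core vesicle biogenesis and release, all tested, 14 were negative and 6 positive with a median log2 fold change of -0.26. In edgeR 5 were lower (background 9.75%) and 1 was higher (background 10.2%) at an unadjusted p below 0.05, and DESeq2 called 2 lower (background 5.48%). These were Ptprn, a membrane protein of the vesicle also known as IA-2, with 56.9, 115 and 139.9 CPM in cre+ and 287, 235, 244 and 141 CPM in cre- libraries (log2 fold change -1.13 ± 0.33), and Cadps, a priming factor of vesicle release (-0.62 ± 0.19). The remaining genes with the smallest p in this list were Arfip1 (0.47 ± 0.14), Eipr1 (-0.40 ± 0.13) and Syt4 (-0.70 ± 0.27), which neither tool called.

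Other processing and degrading enzymes had no such direction, with a median log2 fold change of 0.03 over 14 genes. In edgeR 1 was lower (background 9.75%) and 5 were higher (background 10.2%) at an unadjusted p below 0.05. DESeq2 called 1 lower (background 5.48%) and 4 higher (background 6.7%). Those higher in cre+ were Furin, the convertase of the constitutive pathway (0.52 ± 0.11), Cpd, a carboxypeptidase of the same pathway (0.51 ± 0.10), the lysosomal protease Ctsl (0.49 ± 0.12) and the endothelin-converting enzyme Ece1 (0.58 ± 0.16), and the 1 lower was its relative Ece2 (-0.74 ± 0.21). Of 21 other peptide precursors 12 were tested, with 0 lower and 2 higher at an unadjusted p below 0.05 in edgeR, and DESeq2 called 0 of 8 lower and 2 of 8 higher. These were Apln, the apelin precursor, with 7.89, 7.76 and 11.3 CPM in cre+ and 2.65, 2.45, 5.51 and 2.72 CPM in cre- libraries, and Adm, the adrenomedullin precursor, with 12.8, 10.4 and 14.6 CPM in cre+ and 4.33, 7.30, 9.40 and 5.98 CPM in cre- libraries, both known as peptides of blood vessels. The next 3 by edgeR p, Gnrh1 (-1.33 ± 0.69), Tac1 (-1.22 ± 0.86) and Qrfp (-1.54 ± 1.19), overlapped between genotypes.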

How the data were processed

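RNA of neurons isolated from whole brain was sequenced in 7 libraries. Per the methods of the study and the submitters' notes, the authors used fastp, FastQC, STAR with GRCm39, SAMtools, StringTie and DESeq2, but their versions, the annotation and the strand setting were not given in the sources used here, so reads of overlapping antisense genes may be counted together. The deposited values are raw counts per gene, and 49 repeated rows with identical counts were dropped from 46382. The authors also deposited normalized values, which were not used. Genotypes were compared in R 4.3.3 by the robust quasi-likelihood test in edgeR 4.0.16 after TMM scaling and filterByExpr, with p-values adjusted by Benjamini-Hochberg across all 21542 genes kept (threshold 0.05), and with DESeq2 1.42.0, the test of the study, at the same threshold. CPM are TMM-scaled counts per 1000000 counts, and log2 CPM used a prior count of 2. P-values weigh the genotype difference against the spread between libraries of the same genotype. The labels name no litter, and litter was not a term in the model.

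The members and all gene lists were chosen with earlier results of these data known, so the counts over them are descriptions. Named were all members, up to 5 genes of each other list by edgeR p, and marker lists by their levels. Alternatives were other scalings, filters and tools (limma 3.58.1 for voom), marker levels as covariates, the replicate number as a block, and each library left out. Exon lengths were from GENCODE M39 and promoters from RefSeq. Protein sequences were not used here.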

Additional observations from a re-analysis of the deposited data

Results flagged for a closer look

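In the 4 cre- libraries, 4 of 33 members had a library set apart from the others by a gap larger than Dixon's limit for 4 values. That limit sets apart about 1 in 20 groups by chance if values are normally distributed, which was not checked for these untransformed CPM. Pomc was at 388.6 CPM in cre- replicate 4, against 9.64 to 17.1 CPM in the other cre- libraries, and cre+ replicate 1 was also high for Pomc. Cartpt was at 25.6 CPM in cre- replicate 2, against 2.66 to 6.05 CPM. Hcrt was at 23.6 CPM in cre- replicate 3, against 0.658 to 3.42 CPM. Pmch was low at 0.585 CPM in cre- replicate 4, against 1.36 to 1.51 CPM. All 4 are peptide precursors, and the cause of the differences between libraries was not tested.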

How the results depend on the processing

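In edgeR the count of members lower at an adjusted p below 0.05 was 0 in every alternative of that tool and 6 in DESeq2. At an unadjusted p below 0.05 it was 11 as reported, 17 with library totals in place of TMM factors (which moved the median of all genes to -0.16), 15 in DESeq2, 3 with the vascular marker level and 2 with the neuron marker level as covariate, 6 to 13 without single libraries, and 7 without both cre+ replicate 1 and cre- replicate 1, an alternative chosen after seeing the data. The count of members higher was 0 as reported, 1 with either covariate, 0 to 1 without single libraries and 1 without both. In DESeq2, members lower were 0 with either covariate, 4 to 9 without single libraries and 3 without both, and members higher were 1 with the neuron covariate and 0 to 1 without single libraries. Vip, Grp, Cartpt, Pmch, Oxt, Trh, Scg2, Pcsk1, Pcsk2 and Pam, not called in the main model with all libraries, were called without particular single libraries. With all libraries and the replicate block, Vip (DESeq2 adjusted p = 0.0010), Trh (0.0189) and Scg2 (0.0254) were called as well. Sst was called with that block (0.0029) but not without any single library. Except for Cartpt and Pmch, the library left out lay in or nearest to the range of the other genotype, which favors such a call. For Cartpt and Pmch it was cre+ replicate 2, the highest of all 7 libraries, at 32.3 and 36.1 CPM. The median log2 fold change of -0.67 was -0.010 with the neuron covariate and -0.86 to -0.47 without single libraries. The marker levels themselves differed between genotypes, so models with them cannot separate genotype from marker level.

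Deviations of same-numbered libraries from their genotype means had correlations of -0.03, -0.004 and 0.09 over all tested genes. Of the cre+ libraries, only replicate 3 correlated best with the cre- library of its own number. The labels do not say what the numbers stand for, and this was not tested. With the replicate block, DESeq2 called 10 members lower, and log2 fold changes turned for Cartpt (-0.79), Pomc (1.41), Hcrt (-0.16) and Pmch (-3.19).

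Other log2 fold changes also changed sign. In limma-voom these were Cartpt (-0.46), Pomc (0.44), Hcrt (-1.46) and Pmch (-3.58), and Pomc was at 0.0072 with size factors of DESeq2 in edgeR and at 0.0076 in DESeq2. With the vascular covariate they were Pdyn (0.14), Tac2 (0.91), Nts (0.53) and Cpe (0.047). With the neuron covariate they were Npy (0.63), Pdyn (0.85), Tac2 (1.12), Crh (1.30), Grp (0.41), Adcyap1 (0.090), Nts (0.12), Scg2 (0.031), Scg3 (0.22), Scg5 (0.22), Pcsk2 (0.24) and Cpe (0.51). Without both libraries they were Npy (0.40), Tac2 (0.53), Crh (0.34), Nts (0.078) and Cpe (0.26), and Pomc was at -3.11 and Pmch at 3.95. Without single libraries the values ran from -0.89 to 0.10 for Npy, from -0.74 to 0.33 for Tac2, from -0.70 to 0.07 for Crh, from -0.61 to 0.05 for Nts, from -2.29 to 1.48 for Cartpt, from -2.76 to 2.90 for Pomc, from -0.18 to 2.96 for Hcrt, from -9.63 to 3.89 for Pmch, from -0.52 to 0.29 for Nmb and from -0.12 to 0.13 for Cpe. The cause was not tested. Values of the other members kept their sign. Beside Hcrt and Pmch, depth limited Cort, Vip, Oxt and Agrp, which had at least 1 library with fewer than 20 counts.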
